A study of Mus musculus with 192 samples.

Results

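Colony-forming units-erythroid (CFU-E) are committed red cell progenitors, and 30 of them with the most globin and anion exchanger transcripts were compared with the 30 that had the least. The cells were chosen by the mean log2(CPM + 1) of 4 genes, where CPM is a gene's count after scaling its cell to a total of 1e6 counts: Hba-a1, Hbb-bt and Hbb-bs, which encode adult hemoglobin chains, and Slc4a1, which encodes the band 3 anion exchanger of the red cell membrane. Of 95 CFU-E cells analysed here, 89 had at least 100000 counts and 2000 genes, and 86 of those also reached a summed 100 CPM of Gata1, Klf1, Epor and Mfsd2b, a floor of erythroid transcripts that every ranked cell had to reach. The 30 highest are called globin-high, the 30 lowest globin-low, and the 26 between them belonged to neither end. The series holds 191 matched cells in all, the others being 96 cells labeled as burst-forming units-erythroid (BFU-E), the earlier committed progenitor. Of those 96 cells, 36 had enough counts and genes but stayed under the floor of erythroid transcripts. The 56 that met the same minimums and floor are given as an outside level, as the BFU-E plate.

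All cells came from the livers of C57/Bl6J mice at embryonic day 14.5. Red cells were lysed, cells carrying lineage antigens, Sca-1, CD16/32 or CD41 were removed with magnetic beads, and single cells were sorted on CD117, CD71 and CD24 into wells for SmartSeq2 full-length libraries. Globin-high, globin-low and middle cells are untreated cells that share the CFU-E label and plate, grouped by their ranking values alone. The sort gates, and which sort sessions, animals or pools gave the cells, were not given in the sources used here. All CFU-E cells therefore count as 1 sample, and no test between the ends was made. The 95% intervals cover counting error alone, and because the libraries carry no molecular identifiers, reads amplified from 1 molecule are counted separately. A lower CPM of a gene cannot be told apart from an unchanged amount of its RNA in a cell with more of other RNA.

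In the fetal liver, CFU-E cells divide quickly under erythropoietin and then turn into erythroblasts, which fill with hemoglobin. Hemoglobin needs alpha and beta chains in step with heme, which is built from glycine, succinyl-CoA and iron by a chain of enzymes that begins and ends in the mitochondrion. The membrane skeleton of spectrin, ankyrin and their partners is assembled over the same time, while receptors of earlier progenitors such as Kit are lost.

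The rule set the size of the difference in the ranking genes, so their values describe the ends and test nothing. Hba-a1 ranged from 281 to 6554 CPM with a median of 690.3 in globin-high cells and from 6.16 to 295 CPM with a median of 65.8 in globin-low cells, with 1106 and 80.3 CPM in the summed counts. Hbb-bt ranged from 22.8 to 2375 CPM with a median of 132 in globin-high cells, and in globin-low cells from 0 to 33.4 CPM with a median of 2.27. For Hbb-bs the ranges were 13.3 to 1803 CPM with a median of 184 and 0 to 27 CPM with a median of 2.83. All 3 adult globin genes were thus counted in most globin-low cells, at a low level: 30 of 30 had a count of Hba-a1, 25 of Hbb-bt and 23 of Hbb-bs. The summed levels of Hbb-bt and Hbb-bs there were only 3.33 and 3.67 CPM. In the 36 BFU-E-plate cells under the floor they were 4.17 and 0.278 CPM, with 1.11 CPM of Hba-a1. Whether such low counts came from transcripts of the cell itself was not tested. Slc4a1 ranged from 7.94 to 1254 CPM with a median of 103 in globin-high cells and from 0 to 12.3 CPM with a median of 0 in globin-low cells, of which 13 had a count. In the middle cells the summed levels were 324 CPM of Hba-a1, 34.2 of Hbb-bt, 53.5 of Hbb-bs and 33.1 of Slc4a1, and on the BFU-E plate they were 3.57, 0.536, 4.11 and 0.893 CPM. Even in globin-high cells the ranking genes made up a median of only 0.121% of a cell's counts, and 1.14% in the cell with the most. Hba-a2, the near-identical second adult alpha-globin gene, was at 19.3 against 3 CPM, but reads of the alpha pair may have been split or dropped, so it was left out of the comparison with Hba-a1. The embryonic genes Hba-x and Hbb-y had no count in the summed cells of either end, which allows up to 1 CPM for 3 counts in 3000000, and Hbb-bh1 had 0.333 CPM in globin-high and none in globin-low cells.

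**Figure D1:**
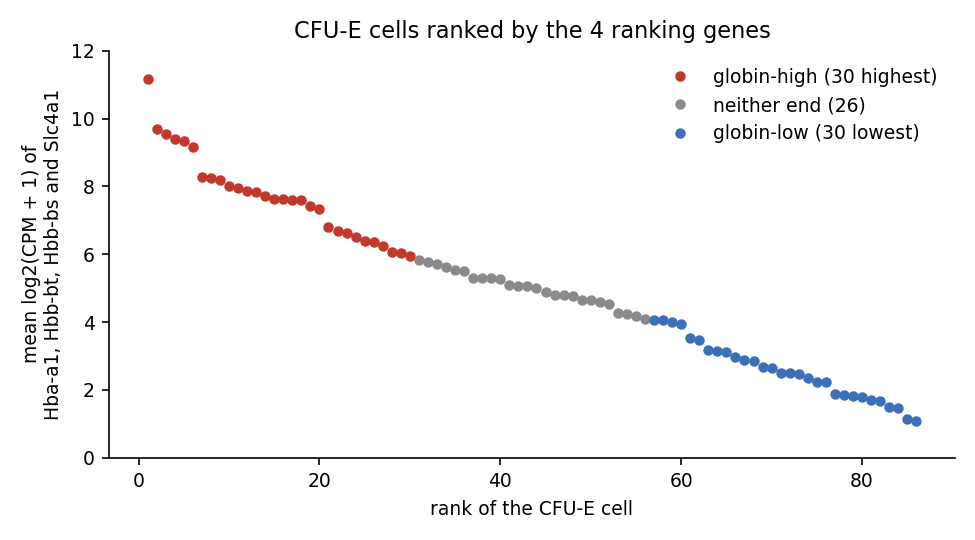
Mean log2(CPM + 1) of Hba-a1, Hbb-bt, Hbb-bs and Slc4a1 (vertical axis) of the 86 CFU-E cells in rank order (horizontal axis), colored by end; each point is 1 cell. The score falls without a break at either boundary, from 5.95 in the last globin-high cell to 5.83 in the next cell, and from 4.10 to 4.06 at the globin-low end.

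The score of the ranking genes ran from 11.16 in the highest cell to 1.09 in the lowest, with medians of 7.64, 5.04 and 2.49 in globin-high, middle and globin-low cells. No gap marked either boundary: the last cell inside the high end scored 5.95 and the first outside 5.83, and the last cell outside the low end scored 4.10 and the first inside 4.06. The cell just outside the low end had 1160 CPM of Hba-a1 but 0.392 CPM of Hbb-bt, so the 4 genes did not order every cell alike. Globin-high cells had a median of 945566 counts (range 351840 to 2992101) and globin-low cells of 1243235 (131891 to 2987128), and 5760.5 against 5914.5 genes at an equal depth of 100000 counts. The mitochondrially encoded share of counts had medians of 4.95% and 5.28%, and the 4 floor genes summed to medians of 1814 and 1541 CPM. Each of the 8 second index sequences of the plate held cells of both ends, 3 to 5 globin-high and 1 to 7 globin-low cells, while first index 5 held no globin-high cell. Taking Xist or Y-linked genes at 50 CPM or more as marks of the sexes, 15 globin-high cells had Y-linked genes and 15 had Xist, against 12 and 16 of the globin-low cells, and no cell had both.

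Outside the ranking genes and Hba-a2, 6907 genes had a mean of at least 10 CPM over the ends. Of these, 291 (4.21%) were at least 2-fold higher in globin-high cells and 265 (3.84%) at least 2-fold lower, where each cell was thinned to 100000 counts and the counts of an end were summed. The median log2 fold over all of them was 0.01 and 50.5% lay above 0. The cells of neither end lay between the ends for 204 of the 291 higher genes and for 198 of the 265 lower ones. Split by odd and even cell numbers in the labels, 269 of the 291 and 242 of the 265 kept their direction in both sets of cells, but only 94 and 87 were at least 2-fold apart in both. The genes were picked for a 2-fold difference between these same ends, which by itself raises all of these counts. No share for genes not picked this way is given beside them, so they test nothing. In 103 of the 291 and 66 of the 265, over 25% of the counts of the higher end came from 1 cell. Single genes near the 2-fold line, mostly at low levels, are therefore loosely measured. The 15 highest and 15 lowest genes named below had counts in at least 50% of the cells of the higher end. No more than 25% of those counts came from 1 cell. Genes named as list members, markers or later additions did not have to pass these limits.

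**Figure D2:**
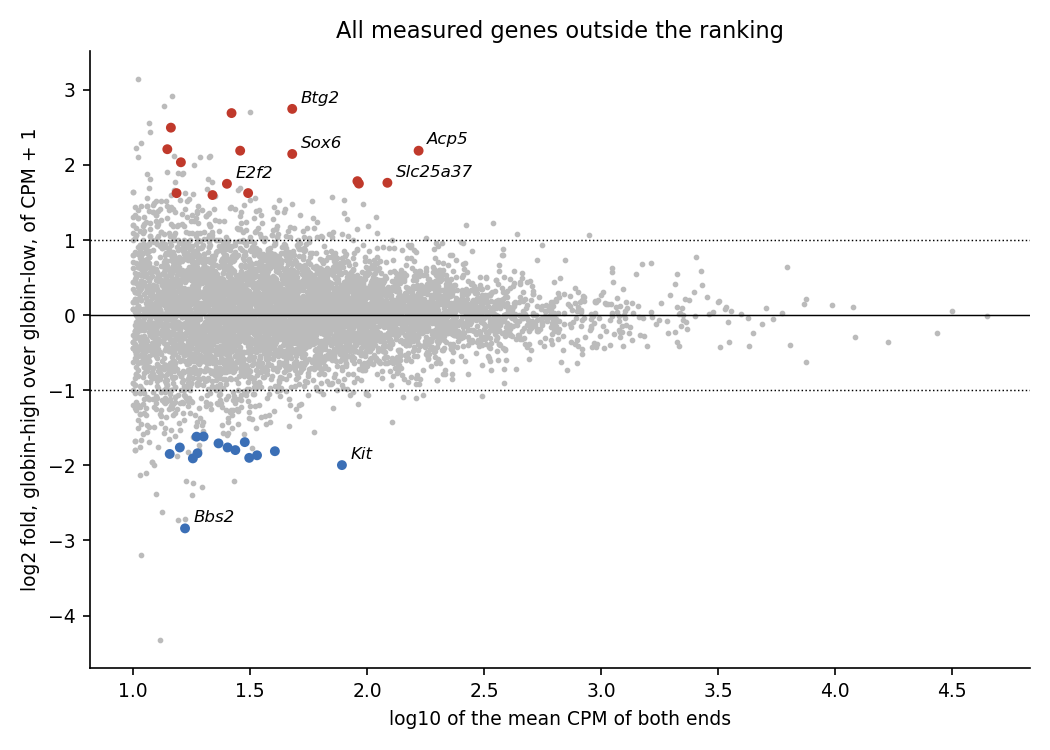
Log2 fold of CPM + 1, globin-high over globin-low (vertical axis), against the log10 mean CPM of both ends (horizontal axis) for the 6907 measured genes (gray). Red and blue points are the 15 highest and 15 lowest genes under the naming rule, some of them labeled, and dotted lines mark a log2 fold of 1 and −1; the spread narrows as the mean rises.

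The 15 highest genes were 3.23- to 7.32-fold higher in globin-high cells and covered several kinds of protein. Btg2, an antiproliferative gene that restrains entry into the cell cycle, had lowest, median and highest values of 0, 66.6 and 249.9 CPM in globin-high cells and 0, 0.200 and 85.2 CPM in globin-low cells. 29 of 30 globin-high cells lay above the globin-low median and 11 lay above every globin-low cell. The summed level was 84 CPM (95% interval 73.9 to 95) against 11.7 CPM (95% interval 8.13 to 16.2), 7.20-fold (95% interval 5.04 to 10.6) higher, with 40.8 CPM in the middle cells and 4.29 on the BFU-E plate. Most globin-low cells had almost no Btg2 transcript, while most globin-high and middle cells did. Sox6, a transcription factor of definitive erythropoiesis that represses embryonic globin genes, had 1.33, 71.6 and 241 CPM in globin-high cells and 0, 16.4 and 63.3 CPM in globin-low cells. No globin-low cell reached the globin-high median, and 19 globin-high cells lay above every globin-low cell. Its summed level of 78.7 CPM was 4.63-fold (95% interval 3.41 to 6.39) higher than the 17 CPM of globin-low cells, and the middle cells and the BFU-E plate were at 44.6 and 2.50 CPM.

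Acp5, the tartrate-resistant acid phosphatase, separated the ends about as well. Its lowest, median and highest values were 2.84, 259.9 and 643 CPM in globin-high and 0.400, 55.2 and 190.0 CPM in globin-low cells, so that no globin-low cell reached the globin-high median and 19 of 30 globin-high cells exceeded every globin-low cell. Summed, it stood at 273 CPM (95% interval 254 to 292) against 59 CPM (95% interval 50.6 to 68.4), 4.62-fold (95% interval 3.92 to 5.47) higher, and at 120 CPM in the middle cells. Slc25a37, mitoferrin-1, carries iron into the mitochondria of developing red cells. It had 56.9, 147 and 423 CPM in globin-high and 3.42, 44.2 and 189 CPM in globin-low cells, and all 30 globin-high cells lay above the globin-low median. Its sums were 189 and 55 CPM, 3.44-fold (95% interval 2.88 to 4.11) higher, while the middle cells at 81.9 CPM stayed nearer to the low end. Trim10, an erythroid RING-finger protein, had 4.84, 122 and 395 CPM against 0, 32.8 and 188 CPM, and 25 globin-high cells lay above the globin-low median. Its sum was 141 against 40.3 CPM, 3.50-fold (95% interval 2.86 to 4.32) higher, and it had no count in the summed BFU-E-plate cells.

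Ube2l6, a conjugating enzyme for ubiquitin and ISG15, was at 143 against 41.7 CPM, 3.42-fold (95% interval 2.80 to 4.21) higher. E2f2, an E2F factor of late erythroid cell cycles, was 3.58-fold (95% interval 2.41 to 5.43) higher at 39.3 against 11 CPM, and 26 of 30 globin-high cells lay above the globin-low median. For the remaining 8 genes, 17 to 24 globin-high cells lay above the globin-low median. Sema4b, a transmembrane semaphorin, was at 46.3 against 6.33 CPM, and Prex1, an exchange factor for Rac GTPases, at 47.7 against 9.67 CPM. Dtx2, a Deltex ubiquitin ligase, was at 23.7 against 4.33 CPM, Apol8 of the apolipoprotein L family at 26.3 against 5.67, and Spata2, an adaptor of the deubiquitinase CYLD, at 33.3 against 10.3. The log2 fold of Spata2 ran from 0.31 to 2.10 under the alternative settings given below. Fam110c and Ccdc77 were at 25.3 against 3.67 CPM and 47.3 against 14.7 CPM. Isg20, an exonuclease, was at 23.7 against 7 CPM, but its log2 fold was 3.51 in odd-numbered and 0.01 in even-numbered cells, so this difference rested on 1 set of cells. In GRCm38, Btg2 lies on chromosome 1 from 134075170 to 134079120, Sox6 on chromosome 7 from 115470872 to 116038796, Acp5 on chromosome 9 from 22126727 to 22135711, Slc25a37 on chromosome 14 from 69241848 to 69285112 and Trim10 on chromosome 17 from 36869574 to 36877833. The table has 1 value a gene, so exons and transcript forms of these protein-coding genes could not be separated.

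**Figure D3:**
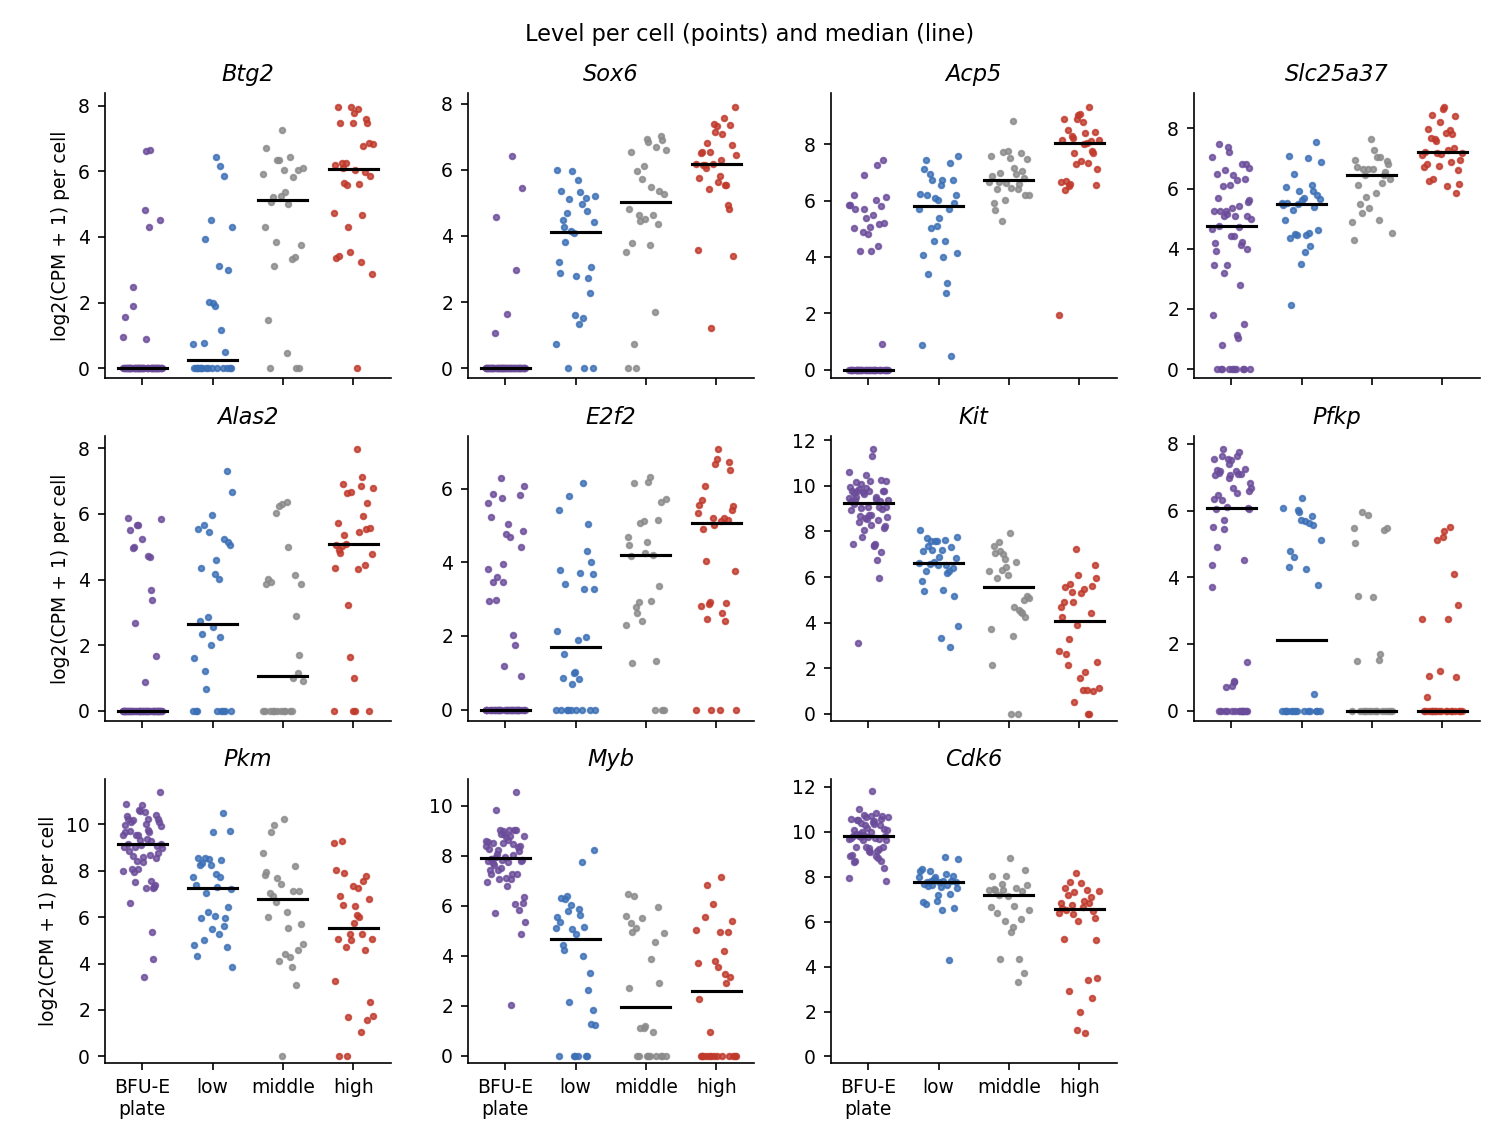
Level per cell as log2(CPM + 1) (vertical axes, one panel a gene) in BFU-E-plate, globin-low, middle and globin-high CFU-E cells; points are cells and lines are medians. Btg2, Sox6, Acp5, Slc25a37 and E2f2 have higher medians from globin-low through middle to globin-high cells, Kit, Pkm and Cdk6 have lower ones, and all groups overlap in most panels.

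The 250 bases before the annotated start are shown for 5 of the genes because they hold, letter for letter, a sequence of the kind bound by GATA1 or by KLF1, the factors that switch on globin and heme genes. They come from RefSeq on GRCm38.p6 and read 5′ to 3′ on the strand of the gene; capitals mark AGATAA or CCACACCC, or their reverse complements TTATCT and GGGTGTGG, which do not overlap each other here.
Acp5, chr9:22135747-22135996, minus strand: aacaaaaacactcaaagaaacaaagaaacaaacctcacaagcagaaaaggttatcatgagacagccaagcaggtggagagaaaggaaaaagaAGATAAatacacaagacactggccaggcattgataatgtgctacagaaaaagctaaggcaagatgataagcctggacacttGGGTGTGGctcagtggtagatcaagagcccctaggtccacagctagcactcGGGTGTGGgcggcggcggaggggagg
Sox6, chr7:115846141-115846390, minus strand: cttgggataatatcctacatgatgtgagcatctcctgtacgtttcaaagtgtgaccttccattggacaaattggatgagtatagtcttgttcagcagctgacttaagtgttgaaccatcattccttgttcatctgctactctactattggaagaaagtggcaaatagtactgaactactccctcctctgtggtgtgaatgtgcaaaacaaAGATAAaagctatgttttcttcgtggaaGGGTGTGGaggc
Trim10, chr17:36869324-36869573, plus strand: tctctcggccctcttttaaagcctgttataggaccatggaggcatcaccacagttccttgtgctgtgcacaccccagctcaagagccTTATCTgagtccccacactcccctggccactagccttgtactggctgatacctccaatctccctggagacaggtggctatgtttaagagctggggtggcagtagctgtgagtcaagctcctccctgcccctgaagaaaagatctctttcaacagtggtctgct
Alas2, chrX:150547167-150547416, plus strand: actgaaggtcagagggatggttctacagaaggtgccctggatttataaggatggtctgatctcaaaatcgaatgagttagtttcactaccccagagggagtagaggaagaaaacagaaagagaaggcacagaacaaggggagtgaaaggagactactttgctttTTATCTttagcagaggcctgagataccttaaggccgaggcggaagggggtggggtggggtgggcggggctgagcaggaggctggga
Hbb-bs, chr7:103827929-103828178, minus strand: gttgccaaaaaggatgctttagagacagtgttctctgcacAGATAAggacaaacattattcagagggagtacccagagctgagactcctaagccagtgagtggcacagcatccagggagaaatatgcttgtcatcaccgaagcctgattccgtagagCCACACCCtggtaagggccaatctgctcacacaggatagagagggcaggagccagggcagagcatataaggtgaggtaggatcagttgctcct
Acp5 holds 1 AGATAA, whose first base lies 158 bases before the start, and 2 copies of GGGTGTGG at 77 and 26 bases. The Sox6 window, which belongs to 1 of several annotated starts and lies inside the gene, holds AGATAA at 40 bases and GGGTGTGG at 12 bases before the start. Trim10 holds TTATCT at 163 bases and Alas2 the same letters at 86 bases, and Hbb-bs, a ranking gene shown for reference, holds AGATAA at 210 bases and CCACACCC at 93 bases. Of the 21 ranking and named genes looked for, 18 had a promoter in the table and 6 had a match, the other being Isg20; Slc4a1 and Slc25a37 were among those with no entry. Over all genes the letters were not rare. With both strands searched, AGATAA was present before 8.40% of the 238 higher genes with a promoter, 5.31% of the 207 lower genes, 6.68% of the 5467 measured genes and 11.4% of all 27025 genes of the table. For CCACACCC the shares were 5.88%, 2.90%, 3.77% and 3.68%, and for CACGTG, the letters of the E-box that MYC binds, 10.5%, 10.1%, 11.4% and 6.86%. Both AGATAA and CCACACCC stood before 2 of the 238 higher genes, Acp5 and Sox6, before none of the 207 lower genes and before 10 of the 5467 measured genes. These are matches of letters, not sites of binding, and no binding data were used.

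Heme synthesis genes stood higher in globin-high cells by small steps. Of 18 measured members, 16 were above 0 in log2 fold and the median was 0.52, beside 0.01 for all measured genes, but only Alas2 was at least 2-fold higher and none was at least 2-fold lower, a count that stood near the background share. Alas2, the erythroid form of the first enzyme of the pathway, had 0, 32.6 and 251 CPM as lowest, median and highest values in globin-high cells and 0, 5.30 and 157 CPM in globin-low cells. 24 of 30 globin-high cells lay above the globin-low median, though the ranges overlapped almost fully. Its sums were 48.7 and 18 CPM, 2.70-fold (95% interval 1.97 to 3.77) higher, and the middle cells stood at 15.4 CPM, no higher than the low end. Later enzymes are given in their order. Alad, which joins 2 aminolevulinates into porphobilinogen, was at 2358 against 1765 CPM. Uros, which closes the ring, was at 262 against 138 CPM, 1.90-fold (95% interval 1.68 to 2.14) higher, and 29 of 30 globin-high cells lay above the globin-low median. Urod, the decarboxylase, was at 233 against 170.3 CPM and Cpox, the coproporphyrinogen oxidase, at 105 against 91 CPM. Ppox, which oxidizes protoporphyrinogen, was 1.96-fold (95% interval 1.74 to 2.22) higher at 259.7 against 132 CPM, and Fech, which inserts the iron, was at 2024 against 1248 CPM, 1.62-fold (95% interval 1.56 to 1.69) higher. Each of these enzymes was thus higher in globin-high cells, and by less than 2-fold except Alas2. The housekeeping form Alas1 was at 23.3 against 15.7 CPM. Of the carriers, Tmem14c, needed for porphyrin to enter the mitochondrion, was at 668 against 399.7 CPM, and Slc25a38, the glycine carrier, at 192 against 128 CPM. Clpx, an unfoldase that acts on ALAS2, lay the other way at 102 against 125 CPM.

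Per cell, the mean log2(CPM + 1) of the heme synthesis list had a median of 7.02 in globin-high, 6.71 in middle and 6.69 in globin-low cells, and 27 of 30 globin-high cells lay above the globin-low median. The lowest globin-high cell (6.40) lay below that median and the highest globin-low cell (7.32) above the globin-high one, so the ends overlapped. Among 20 measured genes of iron uptake, storage and iron-sulfur clusters, only Slc25a37 passed 2-fold in either direction. That count stood near the 4.21% of all measured genes that were higher, and the list's median log2 fold was 0.21. The transferrin receptor Tfrc, the main entry of iron, differed little, at 1423 against 1277 CPM, a log2 fold of 0.16. The ferritin light chain Ftl1, which stores iron, was at 1847 against 1149 CPM, 1.61-fold (95% interval 1.54 to 1.68) higher, and the heavy chain Fth1 at 3217 against 2144 CPM. Ncoa4, which delivers ferritin to lysosomes and frees its iron, was 1.80-fold (95% interval 1.45 to 2.25) higher at 78 against 43.3 CPM, and 26 of 30 globin-high cells lay above the globin-low median. Iscu, the scaffold of iron-sulfur clusters, lay the other way at 22.7 against 35.7 CPM. All 8 measured genes of heme export, binding and breakdown were above 0, with a median log2 fold of 0.39 and none at 2-fold. Eif2ak1, the heme-regulated kinase that holds translation in check when heme is short, was at 240.3 against 163 CPM, and Blvrb, a biliverdin reductase, at 451 against 317 CPM.

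Transcripts of the red cell membrane and its skeleton were mostly higher in globin-high cells, 28 of 37 measured members against 9 lower, and the median log2 fold was 0.42. The number past 2-fold was 2, both of them higher, a count near the 4.21% of all measured genes, and Dmtn was 1 of them. Dmtn, the actin-bundling protein dematin, had 0, 58.1 and 202 CPM as lowest, median and highest values in globin-high cells and 0, 23.3 and 104 CPM in globin-low cells. Its sums of 77 and 34 CPM stood 2.26-fold (95% interval 1.79 to 2.89) apart, with 51.5 CPM in the middle cells, and 23 of 30 globin-high cells lay above the globin-low median. Sptb, the erythroid beta spectrin of the meshwork, was at 252 against 136 CPM. Ank1, the ankyrin that ties spectrin to band 3, was at 198 against 120 CPM, and Epb42, protein 4.2 of the same complex, at 196 against 102 CPM. These partners of the ranking gene Slc4a1 were all higher, by log2 folds of 0.88, 0.72 and 0.93, and none reached 2-fold. Lower in globin-high cells were Add3, the widely expressed gamma adducin, at 43.3 against 71.3 CPM, and Cd44, an adhesion receptor that is lost as erythroblasts mature, at 147 against 210.3 CPM. The erythroid adducin Add2 was at 352 against 352 CPM. Per cell, the list's mean log2(CPM + 1) had medians of 6.96, 6.85 and 6.60 in globin-high, middle and globin-low cells, and 28 of 30 globin-high cells lay above the globin-low median.

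Of 27 measured genes of late red cell maturation, 7 were at least 2-fold higher and none was at least 2-fold lower, more than the background share of 4.21%, although this list was drawn up with results of these data known. Besides Trim10 and Isg20, Mrap, a melanocortin receptor accessory protein expressed in erythroid cells, was 3.02-fold (95% interval 2.42 to 3.80) higher at 107 against 35.3 CPM. Slc6a9, the glycine transporter GLYT1 that feeds heme synthesis, was at 17.3 against 5.67 CPM, and Bpgm, which makes the bisphosphoglycerate that lowers the oxygen affinity of hemoglobin, at 116 against 47.3 CPM, 2.46-fold (95% interval 2.02 to 3.01) higher. Trim2 was at 56.7 against 26.3 CPM and Redrum, an erythroid noncoding RNA, at 1193 against 571 CPM, 2.09-fold (95% interval 1.97 to 2.21) higher. The largest member the other way was Sphk1, a sphingosine kinase, at 140 against 256 CPM, 1.83-fold (95% interval 1.62 to 2.07) lower, with 26 of 30 globin-high cells below the globin-low median. Foxo3, a driver of late maturation genes and of autophagy, was at 20.7 against 28.3 CPM. The late genes thus did not all lie one way.

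**Figure D4:**
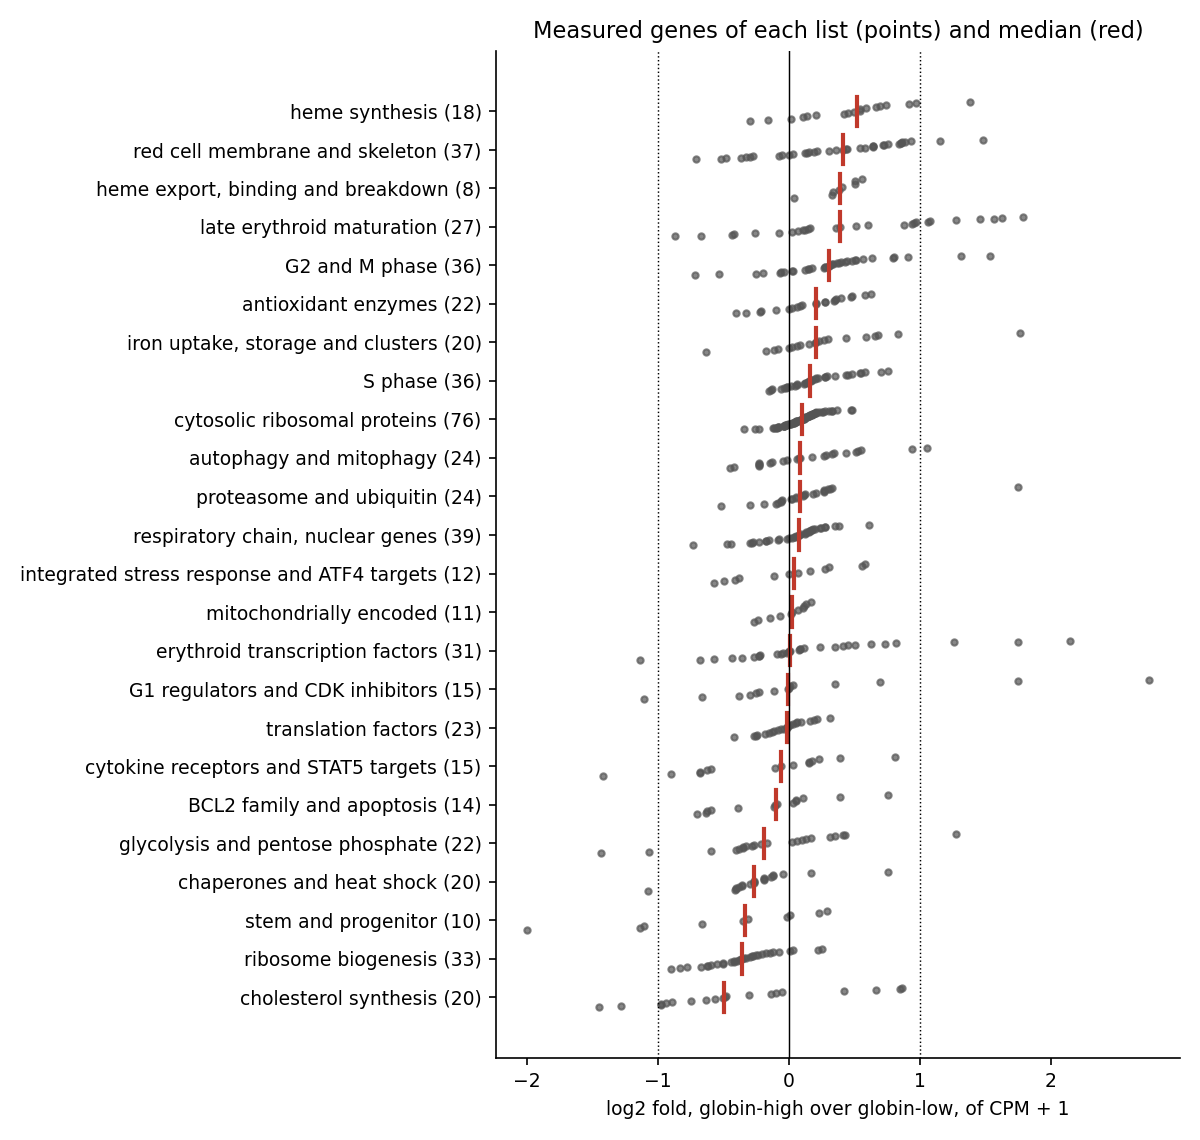
Log2 fold of CPM + 1, globin-high over globin-low (horizontal axis), of the measured genes of 24 lists (points, with the number of genes in parentheses) and the median of each list (red). Dotted lines mark a log2 fold of 1 and −1; heme synthesis has the highest median, 0.52, and cholesterol synthesis the lowest, −0.50, of the lists drawn.

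Erythroid transcription factors as a group did not lean either way, with a median log2 fold of 0.01 over 31 measured members, 16 above and 13 below 0. The floor genes, which every cell had to carry, were not 2-fold apart: Gata1 was at 515 against 388 CPM, Klf1 at 475 against 489, Epor at 416 against 373 and Mfsd2b at 348 against 361. For Klf1, the activator of beta-globin, 15 of 30 globin-high cells lay above the globin-low median, the same number as below it. Gata1, the master factor of the lineage, was 1.33-fold (95% interval 1.23 to 1.44) higher, and 19 of 30 globin-high cells lay above the globin-low median. The 3 members at least 2-fold higher were Sox6, E2f2 and Zfpm1, beside 4.21% of all measured genes. Zfpm1, the GATA1 cofactor FOG1, was at 19 against 7.33 CPM, but 14 of 30 globin-high cells lay above the globin-low median, fewer than lay below it. Bcl11a, a repressor of embryonic and fetal globin, was at 170.3 against 161 CPM, and Tal1, a partner of GATA1, at 18 against 23.3 CPM. Myb, which keeps progenitors dividing, was the 1 member at least 2-fold lower, a count near the 3.84% of all measured genes. It was at 19 against 43 CPM, 2.26-fold (95% interval 1.64 to 3.15) lower, with 16.9 CPM in middle cells and 299 on the BFU-E plate.

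Among the 15 lowest genes, which were 3.29- to 9-fold lower in globin-high cells, Kit had the highest share of cells following the pattern. Kit encodes the receptor of stem cell factor, CD117, which is one of the antigens used in the sort. Its lowest, median and highest values were 0, 16 and 151 CPM in globin-high cells, 0, 47.7 and 240.5 CPM in middle cells and 6.54, 97.2 and 269 CPM in globin-low cells. 29 of 30 globin-high cells lay below the globin-low median, and 9 globin-low cells lay above every globin-high cell. The sums were 30.7 CPM (95% interval 24.7 to 37.6) and 125 CPM (95% interval 113 to 139), 4.09-fold (95% interval 3.25 to 5.19) lower, while the BFU-E plate stood at 695 CPM. Kit thus stepped down from the separate BFU-E plate through globin-low and middle to globin-high cells, and lies on chromosome 5 from 75574916 to 75656722. Cdk6, a G1 kinase of early progenitors, was at 102 against 221 CPM, 2.16-fold (95% interval 1.89 to 2.49) lower, with 144 CPM in middle cells and 1013 on the BFU-E plate, and 28 of 30 globin-high cells lay below the globin-low median. Kit, Myb and Cdk6 were the members at least 2-fold lower among the 10 measured genes of stem and progenitor cells, beside 3.84% of all measured genes, and the list's median log2 fold was −0.33. Myc, which drives growth, was at 238 against 378 CPM, 1.59-fold (95% interval 1.45 to 1.75) lower. Most of the list could not be compared: of 33 members, 23 had means under 10 CPM, among them Cd34 at 1.67 against 0 CPM and Gata2 at 0 against 0.667.

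The other lowest genes belong to unlike pathways, and their values were more uneven between cells. Bbs2, a subunit of the BBSome that carries cargo to cilia, had lowest, median and highest values of 0, 0 and 55.6 CPM in globin-high and 0, 21.7 and 79.7 CPM in globin-low cells, and its sums of 3.33 and 30 CPM were 9-fold (95% interval 4.67 to 19.4) apart. Kif3a, a motor of kinesin-2, was at 14 against 53.7 CPM, and Pex13, a peroxisomal import factor, at 17.3 against 63.3 CPM. 27 globin-high cells lay below the globin-low median for Kif3a and 25 for Pex13. Gna15, a G-protein alpha subunit of blood cells, was at 12.7 against 50 CPM, Gdf3, a TGF-beta family ligand, at 11.7 against 43, and Ssh2, a cofilin phosphatase, at 7 against 29. Ptpn1, a tyrosine phosphatase that acts on receptor and JAK signaling, was at 13.7 against 46.3 CPM, Ash2l of the histone methyltransferase complexes at 7.67 against 30, and Rpp40, a subunit of RNase P, at 9.33 against 30.7. Gnl1, Ctbs, Aste1 and Rnf219 had globin-high sums between 5.67 and 10.3 CPM and globin-low sums between 23 and 36 CPM. Under the alternative settings given below, the log2 fold of Ptpn1 ran from −3.11 to −0.16 and that of Ctbs from −5.09 to −0.47. For these 15 genes, 16 to 27 of 30 globin-low cells lay above the globin-high median, against 17 to 30 globin-high cells above the globin-low median for the 15 highest. Both sets were named for large folds between these same cells and for counts in at least 50% of the cells of the higher end. That choice raises such numbers of cells, so they describe the genes and test nothing.

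Receptors and signal carriers showed single genes rather than a shared direction, with a median log2 fold of −0.06 over 15 measured members. Of these, 2 were at least 2-fold lower, beside 3.84% of all measured genes, and none was at least 2-fold higher. Ifngr1, the ligand-binding chain of the interferon-gamma receptor, had 0, 37.6 and 447 CPM in globin-high and 0, 174 and 416 CPM in globin-low cells as lowest, median and highest values. 26 of 30 globin-high cells lay below the globin-low median, and the sums of 69 and 186 CPM were 2.70-fold (95% interval 2.30 to 3.18) apart. Middle cells, at 73.5 CPM, were like the globin-high end. Sh2b3, the adaptor LNK that dampens KIT and JAK2 signaling, was the other, at 6.67 against 13.3 CPM, with an interval of 1.14 to 3.61. It only just met both the minimum mean of 10 CPM and the 2-fold line, and its log2 fold with the pseudocount was −0.90. Stat5a, which carries the erythropoietin signal, was at 76.7 against 123 CPM and Jak2, the kinase upstream of it, at 17.3 against 27.3 CPM. The RNA-binding program of fetal progenitors was lower in all 4 measured members, with a median log2 fold of −0.58. Of the 4, 1 was at least 2-fold lower, beside 3.84% of all measured genes. Igf2bp3, a reader of fetal messenger RNAs, was 2.19-fold (95% interval 1.54 to 3.15) lower at 16 against 35 CPM, while Hmga1 was at 105 against 164, Igf2bp1 at 151 against 215 and Lin28b, which blocks the let-7 microRNAs, at 84.3 against 103 CPM.

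Ribosome assembly factors were lower in globin-high cells in small but widely shared steps. Of 33 measured members, 29 were below 0 and 4 above, with a median log2 fold of −0.36, and 26 were below 0 in both odd- and even-numbered cells; none was at least 2-fold lower or higher. Per cell, the list's mean log2(CPM + 1) had medians of 6.76, 7.13 and 7.21 in globin-high, middle and globin-low cells, and only 3 of 30 globin-high cells lay above the globin-low median. Tcof1, the treacle protein that supports ribosomal RNA transcription, had 8.95, 115 and 235 CPM against 43.2, 181 and 406 CPM as lowest, median and highest values. 26 of 30 globin-high cells lay below the globin-low median, and its sums were 116 and 207 CPM, 1.79-fold (95% interval 1.57 to 2.04) lower. Nop16, a nucleolar assembly factor, was 1.73-fold (95% interval 1.44 to 2.08) lower at 63.7 against 110 CPM, with 27 of 30 globin-high cells below the globin-low median, and Utp20, of the small-subunit processome, was at 44 against 83 CPM. The nucleolar proteins Npm1 and Ncl were at 5890.3 against 9077 CPM and 2752 against 3687 CPM. Rrs1 lay farthest the other way, at 34.3 against 28.7 CPM. The ribosomal proteins themselves did not follow: of 76 measured, none was 2-fold apart, the median log2 fold was 0.10, and 16 of 30 globin-high cells lay above the globin-low median of the list. Translation factors had a median of −0.01 over 23 members, with none 2-fold apart.

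**Figure D5:**
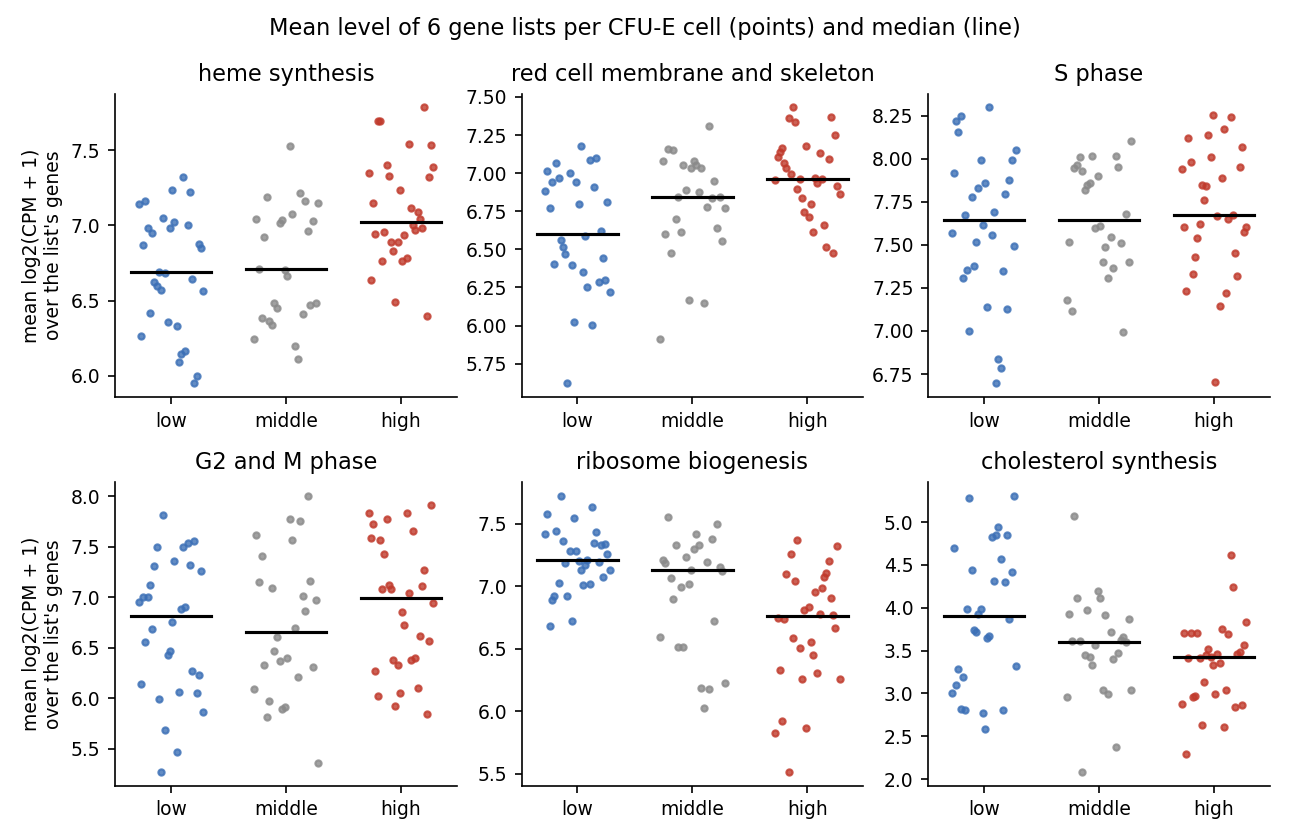
Mean log2(CPM + 1) over the genes of 6 lists (vertical axes) in each globin-low, middle and globin-high CFU-E cell (points), with the median (line). Globin-high cells lie mostly above the globin-low median for heme synthesis (27 of 30) and membrane genes (28 of 30), mostly below it for ribosome biogenesis and cholesterol synthesis (3 and 2 of 30 above), and on both sides of it for S phase and G2 and M phase (17 of 30 each).

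Cholesterol synthesis genes had the lowest median of the pathway lists with more than 5 measured members, −0.50, with 16 of 20 members below 0 and 4 at least 2-fold lower, beside a background of 3.84%. Among these were Insig1, which holds back SREBP, at 23 against 57.3 CPM, Msmo1, a sterol demethylase, at 20.3 against 41, and Mvk, the mevalonate kinase, at 7 against 14.3. Insig1 rested on a few cells, since its log2 fold was −2.70 in odd- and 0.36 in even-numbered cells, and its medians per cell were 2.56 and 5.57 CPM. Sqle and Cyp51, later steps of the pathway, were at 100.3 against 156 CPM and 53 against 105 CPM. Srebf2, the factor that drives the pathway, lay the other way at 45 against 24.3 CPM, 1.85-fold (95% interval 1.38 to 2.49) higher. Per cell, the list's medians were 3.42, 3.61 and 3.90 in globin-high, middle and globin-low cells, and 2 of 30 globin-high cells lay above the globin-low median.

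In glycolysis, the forms of an enzyme lay apart. Pkm, the pyruvate kinase of most growing cells, was 2.10-fold (95% interval 1.84 to 2.4) lower at 112 against 235 CPM, whereas Pklr, which gives the red cell form, was at 319 against 256 CPM. 22 of 30 globin-high cells lay below the globin-low median of Pkm, and the BFU-E plate stood at 734 CPM of Pkm and 37.7 CPM of Pklr. Of the phosphofructokinases, the platelet form Pfkp was 2.95-fold (95% interval 1.75 to 5.17) lower at 6.67 against 19.7 CPM, while the liver form Pfkl was at 658 against 584 and the muscle form Pfkm at 117 against 107. Hexokinase 1 was at 248 against 311 CPM, and Hk2, whose mean was under 10 CPM, at 1.67 against 10.3. The list as a whole had a median log2 fold of −0.19 over 22 members, with 1 at least 2-fold higher, Bpgm, and 2 lower, Pkm and Pfkp, beside 4.21% and 3.84% of all measured genes; the higher count stood near that share.

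Most S, G2 and M phase genes were higher in globin-high cells by small amounts. None of the 36 S phase genes was 2-fold apart, 28 lay above 0 and the median log2 fold was 0.16, and per cell the medians were 7.67 and 7.64 in globin-high and globin-low cells. Mcm6, a subunit of the replicative helicase, was at 2528 against 2207 CPM, and Rrm2, of the ribonucleotide reductase, at 2442 against 2098 CPM. Of 36 G2 and M phase genes, 29 lay above 0 with a median of 0.31, and 2, Cdc25b and Nusap1, were at least 2-fold higher, a count near the 4.21% of all measured genes. Cdc25b, a phosphatase that starts mitosis, was at 119 against 40.3 CPM, 2.95-fold (95% interval 2.39 to 3.66) higher, and 23 of 30 globin-high cells lay above the globin-low median. Nusap1, a spindle protein, was at 156 against 62.3 CPM, with 18 of 30 cells above that median. For the mitotic list as a whole, 17 of 30 globin-high cells lay above the globin-low median, and the ends covered nearly the same range, from 5.85 to 7.91 and from 5.27 to 7.81. Among 15 measured G1 regulators the median was 0.00. Btg2 and E2f2 were at least 2-fold higher and Cdk6 was lower, beside 4.21% and 3.84% of all measured genes. Ccnd3, the D cyclin of erythroid divisions, was at 324 against 200 CPM. The inhibitor Cdkn1b was at 8.67 against 2.67 CPM, too low to be compared.

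Markers of other blood and liver cells were few. Of 16 granulocyte and monocyte markers, none had a count in the summed globin-high cells and 2 did in globin-low cells, S100a9 and Lyz2, at 0.667 CPM each; of 10 mast cell and basophil markers, 1 had a count, Ms4a2, at 4 CPM in globin-low cells, while Cpa3 was at 0 in both. The 15 megakaryocyte markers summed to 33.7 CPM in globin-high and 22.7 in globin-low cells, with Vwf at 18.7 and 11 and Gp9 at 12.7 and 4.67, and 11 and 8 of them at 0. By cell they lay the other way: 0 globin-high and 6 globin-low cells had counts of 3 or more of these markers, not taken at equal depth. The 16 lymphoid markers summed to 6.67 and 2 CPM, with Ebf1 at 2.33 and 0.333 and Lck at 2 and 0.667. Of 12 macrophage markers, Cd68 alone had a count in these sums, at 2 and 2.67 CPM, and Adgre1 was at 0 in both. The 12 endothelial and stromal markers summed to 5.67 and 1 CPM, with Col3a1 at 4.33 and 0 and Pecam1 at 0 and 1. Hepatocyte transcripts were present throughout, at 156 CPM in globin-high, 210.4 in middle and 123 in globin-low cells over 12 markers, led by Afp at 96 against 61 CPM and Alb at 38.3 against 45; their part in the differences was not tested.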

How the data were processed

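The deposited values are whole-number read counts per gene, not normalized, that the authors deposited; STAR 2.4, featureCounts and GRCm38 are named, per the submitters' processing notes. The featureCounts version, annotation release, strand setting and handling of multimapped reads were not given in the sources used here, and SmartSeq2 marks no strand, so near-identical or overlapping genes may share reads. Of 192 cells, 191 columns matched a cell by name, and 1 other column of cell values stayed unused. GENCODE M21 gave positions and gene types for 49326 of 49466 genes.

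Cells with at least 100000 counts, 2000 genes and 100 summed CPM of Gata1, Klf1, Epor and Mfsd2b were ranked on all their counts (log2 of CPM + 1). Each cell was then thinned without replacement to 100000 counts (seed 1), and counts were summed to 3000000 for each end. CPM carry exact Poisson and ratios exact conditional binomial 95% intervals, and log2 folds use a pseudocount of 1 CPM. Values per cell are CPM of all counts of the cell. Genes with a mean of at least 10 CPM were compared, and 2-fold means a ratio of CPM of at least 2. No test was made, no doublet caller was run on these singly sorted cells, and the calculation was tested on simulated data.

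Named were the 15 highest and 15 lowest genes by log2 fold with at least 20 CPM, a count in at least 50% of the cells and no more than 25% of the counts from 1 cell in the higher end, and the same direction in odd- and even-numbered cells; 91 pseudogenes or predicted genes among 2964 eligible were dropped. Also named were the 3 largest members and the largest other way in each list, the ranking and floor genes and, for every other cell type, its 2 markers of highest level. Other list members, such as the heme enzymes in order, were named for their known roles after their values were seen. The cells, the 29 gene lists, the 7 marker lists and the rules were chosen with earlier results of these data known; 3 of 829 symbols were not analysed here, and some list members are not reported here. Alternatives covered the size and ranking of the ends, cell filters, the floor, thinning, scaling (TMM in edgeR 4.0.16, R 4.3.3), the minimum level, the fold, the pseudocount and odd and even cells. Analysis used Python 3.11.15, numpy 2.4.6, pandas 2.3.3 and scipy 1.17.1, and figures matplotlib 3.10.9.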

Additional observations from a re-analysis of the deposited data

How the results depend on the processing

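No paired analysis was possible because no test was made: the cells are 1 sample, and label numbers only name wells. The 2-fold counts of 291 higher and 265 lower genes moved to 454 and 450 with the 20 most extreme cells an end, and the higher count to 164 with 40. With a minimum mean of 5, 20 or 50 CPM, or none beyond 3 counts, they were 529 and 452, 139 and 112, 38 and 22, and 1686 and 1468, and at a fold of 1.5, 861 and 809. Odd-numbered cells gave 485 and 604 and even-numbered cells 604 and 484. Without the floor of erythroid transcripts, the lower count was 398. The higher share of all calls was 52.3%, but 63.3% at 50 CPM and 44.5% in odd-numbered cells or without the floor. Counts under ranking without Slc4a1 or Hba-a1, by Slc4a1 alone or on thinned counts, other scalings, deeper cells, and without lymphoid-marker cells or the highest cell stayed within 1.5 times. Which genes passed was less stable: thinning with seed 2 shared 174 of the 291 and 178 of the 265. Of the named 2-fold genes, Insig1 alone changed sign, to 0.36 in even-numbered cells from −1.28, and the cause was not tested. The 15 highest and 15 lowest genes could not change sign in odd- or even-numbered cells, because the naming rule required 1 direction in both. The settings of the minimum level, the fold and the pseudocount cannot change the sign of any gene. The medians of the heme synthesis, membrane, ribosome assembly and cholesterol lists kept their sign under all 26 alternatives, at 0.32 to 0.64, 0.24 to 0.49, −0.44 to −0.22 and −0.60 to −0.28. Some of the 26 say nothing about these medians. The fold does not enter a median, a floor of 500 CPM picked the same cells, and median-of-ratios scaling gave the main values again. With 3000000 counts an end, genes near 10 CPM rest on about 30 counts, and differences between animals have no estimate. Leaving out the highest cell was chosen after seeing the data.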

Other observations

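Of 22 measured antioxidant enzymes, 16 were above 0, the median log2 fold was 0.21 and none was 2-fold apart. Prdx2, the main peroxiredoxin of red cells, was at 1356 against 875 CPM and Gpx1, a glutathione peroxidase, at 1331 against 892 CPM, with 24 and 26 of 30 globin-high cells above the globin-low median. Prdx6 lay the other way at 3692 against 4895 CPM, and 27 of 30 globin-high cells lay below the globin-low median. Chaperones were mostly lower, 18 of 20 below 0 with a median of −0.27. Hspa4 of the HSP110 family was the 1 member at least 2-fold lower, a count near the 3.84% of all measured genes. It was at 198 against 419 CPM, 2.12-fold (95% interval 1.92 to 2.34) lower. Hspd1, the mitochondrial HSP60, was at 5490 against 7256 CPM and Hspa9, mortalin, at 1855 against 2461. Of 24 autophagy genes, 14 were above 0 and 1 was at least 2-fold higher, a count near the 4.21% of all measured genes. It was Wipi1, which marks forming autophagosomes, 2.11-fold (95% interval 1.69 to 2.63) higher at 86.3 against 41 CPM. Nuclear genes of the respiratory chain (39 measured), mitochondrially encoded genes (11), proteasome genes (24), targets of ATF4 (12) and BCL2 family genes (14) had medians of 0.08, 0.02, 0.08, 0.04 and −0.10. Ube2l6 was their only member 2-fold apart, beside 4.21% higher and 3.84% lower of all measured genes. Of 18 genes of the glucocorticoid response, 2 were measured and neither was 2-fold apart: Tgfbr3 was at 42 against 33 CPM, and the receptor Nr3c1, which supports BFU-E renewal, was at 45.7 against 70.7 CPM and at 159.6 CPM on the BFU-E plate. Btg2 was the 1 measured gene of 19 immediate early genes, and none of the 4 measured sex-linked genes was 2-fold apart. Chosen after its values were seen, Dusp1, a phosphatase of MAP kinases, was at 18.7 CPM in globin-high, 4.62 in middle and 1 in globin-low cells, a ratio of 18.7 (95% interval 6.07 to 93.2), and its mean was just under the minimum of 10 CPM.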
